A study of Danio rerio with 12 samples.

Results

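The genes described here are 10 germ-cell genes of the piRNA pathway, chosen by name with earlier results on the same libraries known, in which germ-cell genes of this pathway were higher after JQ1 than after DMSO. Of these, 8 were found among the 25607 zebrafish genes of the count table by their Ensembl gene name. They were *piwil1*, *piwil2* (ENSDARG00000062601), *ddx4*, *tdrd1*, *tdrd5*, *tdrd9*, *asz1* and *henmt1*. For *mael* and *mov10l1* no row was matched, and they were not analysed here. The RNA came from tumor cells, sorted for mCherry, of Tg(*lck:IRF4*) zebrafish, in which the zebrafish *lck* promoter drives human *IRF4* and the marker mCherry. The paper gives the fish of its JQ1 treatment experiment as wild type for *p53* and does not restate this genotype for the RNA-seq fish. The 12 libraries formed 4 groups of 3, namely JQ1 at day 3, DMSO at day 3, JQ1 at day 1 and DMSO at day 1. JQ1, an inhibitor of BRD proteins, was given at 4 μM in the water of individual tanks, and DMSO was its vehicle. The fish were 10 months old and carried tumors in all 4 groups. The labels number the libraries within each group as replicates and do not identify the fish. The paper describes the treated and control fish of its RNA-seq comparison as independent animals within each group. The fish were of mixed gender according to the study's methods, and the labels give no sex for any library. Day 1 is stated by the labels only, since the methods describe a treatment of 3 days.

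PIWI proteins are members of the Argonaute family that are guided by piRNAs, a class of small RNAs of the germline, to the transcripts of transposable elements. piRNA precursors are cut and trimmed at the surface of mitochondria and in the nearby germ granules, where Tudor-domain proteins bind methylated arginines of the PIWI proteins and hold the machinery together. In zebrafish, both PIWI proteins are needed to maintain germ cells, and these genes are used as markers of ovary and testis and not of lymphocytes.

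The libraries held 8176139 to 12771912 counts on zebrafish genes. They are given below as CPM, the counts per 1e6 counts on zebrafish genes, which is not a level per transcript length, so that levels were compared between libraries and not between genes. A count of 0 allows up to 3 counts, or 0.235 to 0.367 CPM depending on the library, and this limit covers counting error only. ENSDARG00000036482, listed under the name HEXIM2 in the reference name table and taken as a check of BRD inhibition, had 141 to 188 CPM after JQ1 against 47.6 to 65.7 CPM after DMSO at day 3, and 185 to 289.6 CPM against 49.996 to 80.4 CPM at day 1. The tumor transgene *IRF4* had 503 to 3415 CPM after JQ1 and 3307 to 6291 CPM after DMSO at day 3, and was lowest in replicate 2 of JQ1 at day 3. *lck* had 114 to 511 CPM after JQ1 and 905 to 1110.4 CPM after DMSO at day 3, with its lowest value in the same library. At day 1 the groups overlapped for *IRF4* (2477 to 6660 CPM after JQ1, 4009 to 5701 CPM after DMSO) and for *lck* (481 to 1046 CPM, 655 to 1235 CPM). The sorting marker mCherry had 283 to 2878 CPM after JQ1 and 3476 to 5236 CPM after DMSO at day 3. At day 1 mCherry overlapped too (1485 to 4516 CPM after JQ1, 3275 to 4751 CPM after DMSO). In bulk RNA, fewer cells of a type and less RNA per cell cannot be told apart.

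*piwil1* and *piwil2*, which encode the PIWI proteins Ziwi and Zili, were far higher in every JQ1 library than in any DMSO library. *piwil1* had 226, 644 and 68.0 CPM in the JQ1 libraries of day 3 (replicates 1, 2 and 3), against 0.161, 0.216 and 9.05 CPM in the DMSO libraries. At day 1 it had 109, 184 and 261 CPM after JQ1, against 0.170, 0.254 and 6.07 CPM after DMSO. Replicate 3 stood above the other DMSO libraries on both days, and the lowest of the 6 JQ1 libraries was 7.52-fold above the highest of the 6 DMSO libraries. The fitted log2 fold change of *piwil1* was 6.34 (SE 1.65) at day 3 and 6.51 (SE 1.24) at day 1. For *piwil2* the JQ1 libraries had 34.8, 107 and 13.1 CPM at day 3, against 0.241, 0.647 and 0.978 CPM in DMSO. At day 1 they had 13.8, 28.9 and 30.8 CPM, against 0, 0.0846 and 0.0789 CPM in DMSO. In DMSO *piwil2* thus lay at 1 count or fewer per library at day 1, while the DMSO libraries of day 3 were higher, at 3, 6 and 8 counts. The lowest of these equals the limit of 3 counts given for a count of 0. Of the genes tested between the DMSO days, 5.03% were apart in this way, but *piwil2* had too few counts to be among them. The log2 fold change of *piwil2* after JQ1 was 6.12 (SE 0.94) at day 3. At day 1 the DMSO libraries held 2 counts in all, and the ratio of the summed CPM was 442 with a 95% counting interval of 122 to 3655.

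*ddx4*, the zebrafish *vasa*, encodes a DEAD-box RNA helicase of the germ granules and is the usual marker of zebrafish germ cells. It had 85.9, 343 and 43.0 CPM after JQ1 at day 3, against 0.0804, 0 and 3.06 CPM after DMSO. At day 1 the values were 41.3, 92.4 and 107 CPM after JQ1, against 0, 0.254 and 4.02 CPM after DMSO. As for *piwil1*, only replicate 3 of the DMSO groups was above 1 CPM, and no DMSO library reached the lowest JQ1 library, which was 10.3-fold above the highest DMSO library. The log2 fold change was 7.0 (SE 1.54) at day 3 and 5.89 (SE 1.27) at day 1.

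The Tudor-domain genes moved the same way. *tdrd1* encodes a scaffold protein of the germ granules that binds PIWI proteins. It had 47.0, 125 and 19.8 CPM after JQ1 at day 3, against 0.0804, 0.108 and 1.59 CPM after DMSO, and at day 1 it had 16.4, 33.7 and 39.7 CPM, against 0, 0.0846 and 0.867 CPM. Its groups were apart on both days, with a log2 fold change of 6.54 (SE 1.20) at day 3 and 6.56 (SE 1.03) at day 1. *tdrd5*, needed in the mouse for germ granules of sperm precursors, had 12.9, 41.1 and 3.82 CPM after JQ1 at day 3, against 0.161, 0 and 0.245 CPM after DMSO. At day 1 *tdrd5* had 2.97, 11.1 and 8.35 CPM after JQ1, against 0.0850, 0 and 0.394 CPM after DMSO. The DMSO libraries held 4 counts of *tdrd5* in all at day 3 and 6 at day 1, so that its log2 fold changes of 6.76 (SE 1.20) and 5.49 (SE 1.05) rest on few reads. *tdrd9* joins a Tudor domain to an RNA helicase and is needed in the mouse to silence transposons. It had 40.8, 139 and 23.2 CPM after JQ1 at day 3, against 0.402, 0.108 and 1.10 CPM after DMSO, and 19.8, 31.2 and 43.9 CPM at day 1, against 0, 0 and 0.710 CPM. *tdrd9* had the widest gap of the 3 Tudor-domain genes, with its lowest JQ1 library 17.9-fold above its highest DMSO library and log2 fold changes of 6.70 (SE 0.99) at day 3 and 7.05 (SE 1.11) at day 1. All 9 DMSO counts of *tdrd9* at day 1 lay in replicate 3, so that this fold change rests on few reads as well.

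*asz1*, known in the mouse as a protein of the mitochondrial surface that holds the piRNA machinery there, had few counts. After JQ1 it had 4.49, 9.87 and 1.19 CPM at day 3, while the 3 DMSO libraries of that day held 0 counts. At day 1 it had 2.2, 2.21 and 6.78 CPM after JQ1, against 0, 0 and 0.0789 CPM after DMSO. Against a limit of 3 counts in each DMSO library, the JQ1 mean of day 3 was at least 16.7-fold higher. At day 1, with 1 count in the DMSO libraries, the ratio was 135 with a 95% counting interval of 23.8 to 5383.

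*henmt1*, which encodes the methyltransferase that protects the 3′ ends of piRNAs, differed from the other 7 genes in having more than 3 counts in each DMSO library. It had 2.96, 4.46 and 2.12 CPM after JQ1 at day 3, against 1.13, 1.62 and 1.96 CPM after DMSO. At day 1 it had 1.87, 3.54 and 1.74 CPM after JQ1, against 2.55, 3.21 and 1.10 CPM after DMSO. The groups overlapped at day 1 and were barely apart in CPM at day 3, where the lowest JQ1 library was 1.08-fold above the highest DMSO library. Its log2 fold change was 0.78 (SE 0.53) at day 3 and 0.05 (SE 0.67) at day 1. Over the 12 libraries its Pearson's r with the mean log2 CPM of the other genes was 0.35, against 0.96 to 1.00 for each of these 7.

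**Figure D1:**
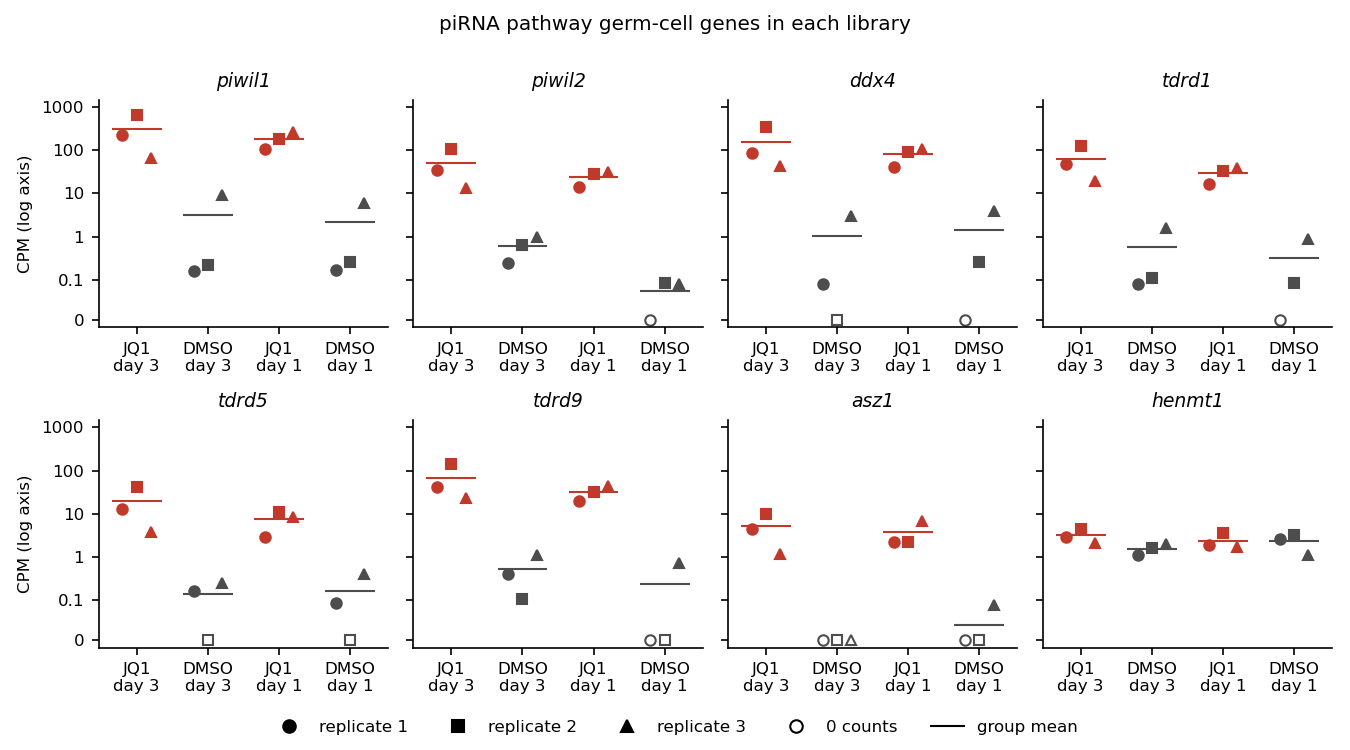
Level of each of the 8 genes in the 12 libraries, in counts per 1e6 counts on zebrafish genes (CPM, log axis, with 0 counts drawn as open symbols at the foot), for JQ1 and DMSO at day 3 and at day 1, with a line at each group mean. In 7 panels all JQ1 libraries lie above all DMSO libraries, replicate 3 is the highest DMSO library in most, and *henmt1* lies between 1.10 and 4.46 CPM throughout.

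Since the genes were chosen for the difference between JQ1 and DMSO, their calls in these comparisons describe the choice and are no test of it. At day 3, 7 of the 8 genes passed an adjusted p of 0.05 as higher (edgeR's quasi-likelihood test), in a comparison in which 15.3% of the 16271 genes tested were called higher. At day 1, 1 of 8 was called, *piwil2*, where 0.0443% of 15813 genes tested were called. An unadjusted p under 0.05 was reached by 7 of 8, and by 3537 of the 15813 genes tested. The 3 JQ1 libraries lay above the 3 DMSO libraries for 8 of 8 genes at day 3 (30.2% of all genes tested) and for 7 of 8 at day 1 (14.9%). All 8 genes passed the filter on low counts in both comparisons, 7 of them through the JQ1 libraries. The median log2 fold change of the 8 genes was 6.62 at day 3, or 6.44 with *asz1* at its lower bound, against 0.05 over all genes tested, and 6.53 at day 1, against 0.00. At day 3, leaving out any 1 of the 3 DMSO libraries left 0 of the 8 genes called, and 0 of all genes tested. Without JQ1 replicate 1, 5 of the 8 were called (10.7% of all genes tested called higher). It was 3 without JQ1 replicate 2 (2.26%) and 7 without JQ1 replicate 3 (14.8%). At day 1, 7 were called without DMSO replicate 3, the library with the highest DMSO levels (7.12% of all genes called higher). Leaving out any other library left 0 of the 8 and 0 of all genes called.

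**Figure D2:**
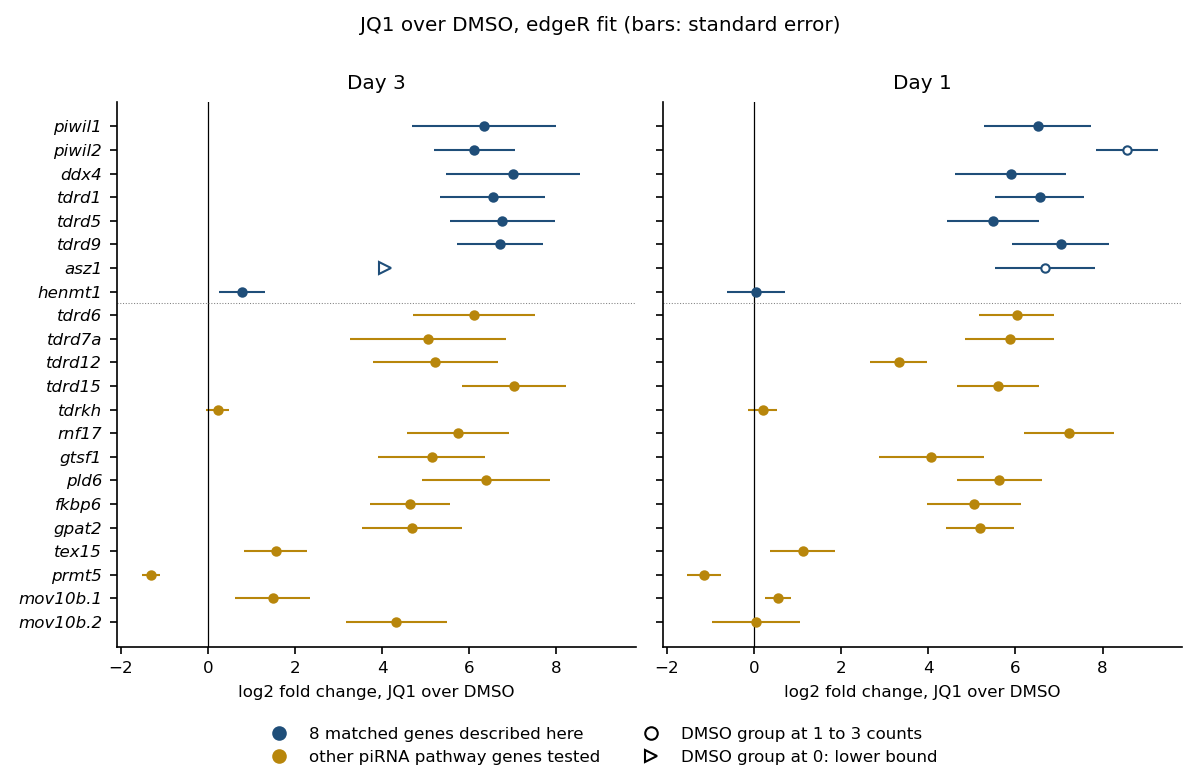
Log2 fold change of JQ1 over DMSO at day 3 (left) and day 1 (right) from edgeR, for the 8 genes (blue) and 14 further piRNA pathway genes (gold). Bars are standard errors derived from the test's F statistic. The blue points other than *henmt1* lie between 5.49 and 8.57, the bound of *asz1* at day 3 is drawn at 4.06, and *prmt5* lies below 0 on both days.

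The 7 genes other than *henmt1*, which was set aside after its values were seen, varied together among the JQ1 libraries. Their summed level was 451, 1408 and 172 CPM in replicates 1, 2 and 3 of JQ1 at day 3, against 1.13, 1.08 and 16.0 CPM in DMSO. At day 1 the sum was 206, 384 and 498 CPM after JQ1, against 0.255, 0.677 and 12.2 CPM after DMSO. The sum therefore differed 8.18-fold between the JQ1 libraries of day 3 and 2.42-fold between those of day 1. Replicate 2 of day 3 was the highest of the 6 JQ1 libraries for 7 of the 7 genes, whereas the lowest was replicate 1 of day 1 for 4 genes and replicate 3 of day 3 for 3 genes. In DMSO, replicate 3 was the highest library for 6 of 7 genes on each day. The other 4 DMSO libraries held at most 3 counts in 26 of 28 values, and the highest count among them was 6.

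The make-up of this sum changed less than its size. In the 6 JQ1 libraries *piwil1* took 39.5% to 53.1% of the counts of the 7 genes, *ddx4* 19.0% to 25.0%, *tdrd9* 8.14% to 13.5%, *tdrd1* 7.96% to 11.5% and *piwil2* 6.18% to 7.71%. *tdrd5* (1.44% to 2.92%) and *asz1* (0.577% to 1.36%) took the smallest shares. The shares are of counts, not per transcript length. The *piwil1* share was lowest in replicate 3 of day 3 (exact 95% binomial interval 37.4% to 41.7%) and highest in replicate 1 of day 1 (51.0% to 55.1%), a difference beyond counting error. In replicate 3 of DMSO, *piwil1* took 56.5% of 131 counts at day 3 (47.6% to 65.1%) and 49.7% of 155 counts at day 1 (41.6% to 57.8%). *piwil2* was at 1 of 155 counts in the DMSO library of day 1, or 0.645% (0.0163% to 3.54%), below its range in the JQ1 libraries. Between pairs of the 7 genes, Pearson's r of log2 CPM was 0.93 to 1.00 over the 12 libraries and 0.74 to 0.99 over the 6 JQ1 libraries. These values are given as a description, since the libraries share the treatment contrast and, among the JQ1 libraries, the high level of replicate 2 of day 3.

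**Figure D3:**
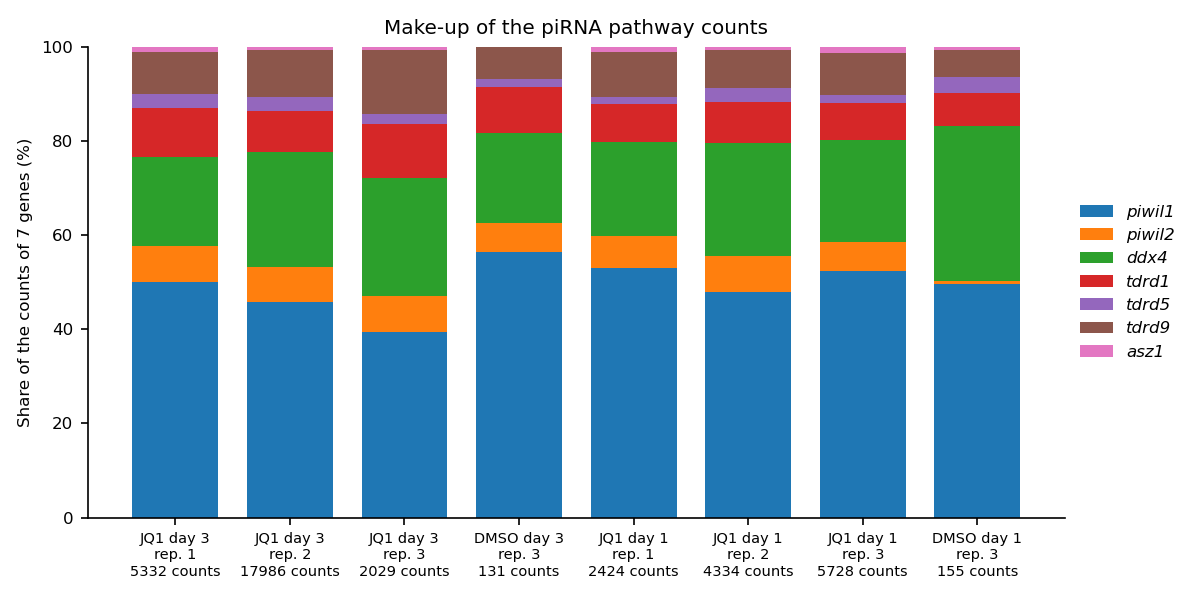
Share of each of 7 genes in their summed counts (percent, stacked to 100) in the 6 JQ1 libraries and in replicate 3 of each DMSO group, with the summed count under each bar. *piwil1* takes 39.5% to 53.1% in the JQ1 libraries although the sums run from 2029 to 17986 counts.

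Between days, no difference in level passed the test. At day 3 of JQ1 against day 1, 0 of the 8 genes were called by edgeR, with 0 at an unadjusted p under 0.05, and the groups overlapped for each gene (13.8% of all genes tested were apart with day 3 higher and 3.36% with day 3 lower). Their log2 fold changes of day 3 over day 1 were all above 0 and ranged from 0.16 for *henmt1* (SE 0.59) to 1.09 for *tdrd5* (SE 0.78, adjusted p = 0.746 from edgeR), with a median of 0.73, where 0.0286% of 17460 genes were called. The direction rested on 1 library, because without replicate 2 of day 3 the median was −0.19 and 0 of 8 genes were above 0. When libraries were scaled by their ERCC spike-in counts, the median over all genes was 1.04 and that of the 8 genes was 1.99. On that scale 1 of the 8 was called by edgeR (3.56% of all genes called higher) and 3 by DESeq2 (8.09%). In DMSO, only *henmt1* had enough counts for the test of day 3 over day 1, and it was not called (log2 fold change −0.60, SE 0.63, adjusted p = 0.934 from edgeR). No gene of 14106 tested was called in that comparison by edgeR (701 at an unadjusted p under 0.05), while DESeq2 called 119, with 0 of the 8 among them. In a fit over the 4 groups, all 8 entered the comparison of the DMSO days, and 0 were called (1 at an unadjusted p under 0.05, as were 1095 of 18116 genes tested). All but *henmt1* passed the filter of that fit only through the JQ1 libraries. Their few DMSO counts could hardly give a call, so that this result cannot decide whether the DMSO days differed for them.

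No difference in the effect of JQ1 between the days passed the test either. For the 8 genes, the log2 fold change at day 3 minus that at day 1 was above 0 for 4 and below 0 for 4. It ranged from −2.51 for *piwil2* (SE 1.24, adjusted p = 0.711 from edgeR) to 1.99 for *asz1* (SE 1.77, adjusted p = 0.801 from edgeR), both of which rest on the few counts of the DMSO libraries. No gene of the 8 was called, with 0 at an unadjusted p under 0.05, and 0 of all 18116 genes tested were called by edgeR (1260 at an unadjusted p under 0.05), against 39 by DESeq2. The standard errors were 0.85 to 1.86 on the log2 scale, so that a change of severalfold was not detectable in these libraries.

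From a list of 20 further genes of the pathway, 15 were matched. In 11 of these 15 the 3 JQ1 libraries were above the 3 DMSO libraries at day 3 (30.2% of all genes tested), and in 10 of 15 at day 1 (14.9% of all genes tested). For the test, 14 had enough counts, 8 of them only through the JQ1 libraries, so that the number of calls describes the genes that passed and does not count as support. At day 3, 9 were called higher by edgeR (15.3% of all genes) and 1 lower (9.91% of all genes). The genes called higher were *tdrd6*, *tdrd12*, *tdrd15*, *rnf17*, *gtsf1*, *pld6*, *fkbp6*, *gpat2* and *mov10b.2*, of which 7 had too few counts in the DMSO libraries alone. Without the filter on low counts, 10 genes of the list were called in either direction at day 3. Of all 23625 genes tested there, 1755 were called higher and 1402 lower. At day 1 it was 6 of the list (168 of 23277 genes called higher and 57 lower). With the filter, 0 were called at day 1, with 10 at an unadjusted p under 0.05, as were 3537 of 15813 genes tested. Without DMSO replicate 3, edgeR called 10 (1191 of 16738 genes called higher and 400 lower). The 10 calls of day 3 fell to 0 when any 1 DMSO library was left out, as did those over all genes. They fell to 5 without JQ1 replicate 1 (1814 of 17020 genes called higher and 1209 lower). Without JQ1 replicate 2 they fell to 3 (376 of 16608 genes called higher and 371 lower).

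*pld6* encodes the mitochondrial nuclease that cuts piRNA precursors, and *gtsf1* encodes a small zinc-finger partner of PIWI proteins. *pld6* had 12.2, 32.8 and 2.80 CPM after JQ1 at day 3, against 0, 0 and 0.489 CPM after DMSO, a log2 fold change of 6.39 (SE 1.48, adjusted p = 0.0295 from edgeR). *gtsf1* had 21.3, 8.53 and 3.31 CPM, against 0, 0.216 and 0.612 CPM (log2 fold change 5.15, SE 1.23, adjusted p = 0.0308 from edgeR). Both were highest in replicates 1 or 2 and lowest in replicate 3 of JQ1. *tdrd6*, a Tudor-domain gene of the germ plasm, had 169.7, 229.6 and 18.8 CPM after JQ1 at day 3, against 0.563, 0.108 and 4.40 CPM after DMSO (log2 fold change 6.11, SE 1.39, adjusted p = 0.0287 from edgeR). *tdrd7a*, another Tudor-domain gene, had as wide a gap in most libraries but was not called (170.4, 135 and 9.67 CPM after JQ1 against 0, 0.108 and 7.83 CPM after DMSO, log2 fold change 5.06, SE 1.79, adjusted p = 0.0743 from edgeR). *pld6*, *gtsf1*, *tdrd6* and *tdrd7a* passed the filter on low counts only through the JQ1 libraries. Their p-values therefore describe these genes and are no test of the difference.

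Some genes of the list had other patterns. *prmt5* encodes the methyltransferase that marks arginines of PIWI proteins and, in all cells, of splicing factors. It fell to 66.0, 51.0 and 51.8 CPM after JQ1 at day 3, against 114, 123 and 121 CPM after DMSO (log2 fold change −1.30, SE 0.20, adjusted p = 0.0215 from edgeR). *tdrkh*, whose product tethers PIWI proteins to mitochondria, had 27.1, 27.2 and 17.6 CPM after JQ1 at day 3, against 19.5, 16.2 and 16.4 CPM after DMSO, and was not called (log2 fold change 0.23, SE 0.26, adjusted p = 0.522 from edgeR). *mov10b.2* encodes a helicase related to the product of *mov10l1*. It was called at day 3 (17.6, 2.74 and 64.3 CPM after JQ1, against 0.884, 2.05 and 0.856 CPM after DMSO, log2 fold change 4.33, SE 1.15, adjusted p = 0.0379 from edgeR), but it was highest in replicate 3, the JQ1 library with the lowest sum of the 7 genes.

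The 10 genes most like the 8 genes over the 12 libraries, by Pearson's r of their log2 CPM with the mean of the 8, were *tdrd15*, *rnf17*, *ddx19a*, *gpat2*, *pld6*, *tdrd6*, *DSP*, *dazl*, *nanog* and *topaz1*. Their r ranged from 0.991 for *tdrd15* to 0.983 for *topaz1*, and 5 of the 10 were also in the top 10 by Spearman's rho. The epithelial genes *krt4*, *krt5* and *epcam* had an r of 0.88, 0.94 and 0.95. Of 18108 candidates, 561 had an r above 0.9, and all share the contrast between JQ1 and DMSO libraries, so that these values are a description of that contrast as well. Over the 6 JQ1 libraries alone, r was 0.28 for *krt4*, 0.46 for *krt5* and 0.80 for *epcam*. For *tdrd15*, *rnf17*, *gpat2*, *pld6*, *tdrd6* and *dazl* it ranged there from 0.88 (*tdrd6*) to 0.97 (*rnf17*). These values are a description too.

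Of 7 matched genes of germ-cell identity, 5 had enough counts for the test, 3 of them only through the JQ1 libraries. At day 3, 2 were called higher by edgeR (15.3% of all genes). Counted in either direction, 1 was called without JQ1 replicate 1 (1814 of 17020 genes called higher and 1209 lower). Without JQ1 replicate 2 it was 1 as well (376 of 16608 genes called higher and 371 lower). Leaving out any 1 DMSO library left 0 called, as over all genes. At day 1, 0 were called (0.0443% of all genes called higher), with 3 at an unadjusted p under 0.05, as were 3537 of 15813 genes tested. Both genes called at day 3, *dazl* and *dnd1*, passed the filter on low counts only through the JQ1 libraries. Their p-values therefore describe these genes and are no test of the difference. *dazl*, which encodes an RNA-binding protein of germ cells, had 24.6, 81.2 and 8.23 CPM after JQ1, against 0, 0.108 and 1.83 CPM after DMSO (log2 fold change 5.64, SE 1.46, adjusted p = 0.0358 from edgeR). *dnd1*, needed for germ-cell survival in zebrafish, had 3.47, 9.63 and 4.84 CPM, against 0.322, 0.431 and 0.367 CPM (log2 fold change 3.72, SE 0.61, adjusted p = 0.0221 from edgeR). *nanos2* had up to 1.41 CPM after JQ1 at day 3 and up to 0.870 CPM after JQ1 at day 1, with at most 2 counts in a DMSO library. *nanos3* had at most 0.391 CPM in any library. Of 16 matched meiosis genes, 13 were tested at day 3 and 4 were called higher (15.3% of all genes), *hormad1*, *spo11*, *stag3* and *spata22*, all of which passed the filter only through the JQ1 libraries. At day 1, 14 were tested and 0 were called (11 at an unadjusted p under 0.05, as were 3537 of 15813 genes tested). The groups were apart with JQ1 higher for 7 of the 16 at day 3 (30.2% of all genes tested) and for 13 of the 16 at day 1 (14.9%). At day 3, 10 meiosis genes were called in either direction without replicate 3 of JQ1 (2583 of 17511 genes called higher and 1318 lower). Without replicate 1 of JQ1 it was 2 (1814 of 17020 genes higher and 1209 lower). Without replicate 2 of JQ1 it was 0 (376 of 16608 higher and 371 lower). Leaving out any 1 DMSO library left 0 called, as over all genes. *sycp1*, of the synaptonemal complex, was not called and was present in DMSO too (249, 59.8 and 10.3 CPM after JQ1, against 31.2, 21.1 and 28.6 CPM after DMSO at day 3).

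Replicate 3 of JQ1 at day 3 stood apart from the other 5 JQ1 libraries in its germ-cell genes. It had the highest level of the 12 libraries for 6 of 11 oocyte genes, and the lowest level of the 6 JQ1 libraries for 12 of 16 meiosis genes and 4 of 7 sperm genes. Summed over the oocyte list it had 76.6 CPM, against 13.5 to 31.6 CPM in the other JQ1 libraries and 4.10 to 8.59 CPM in DMSO. The oocyte genes named here were picked after their values were seen. *zp2.2* and *zp3*, genes of the egg envelope, had 17.9 and 8.48 CPM in this library and at most 0.508 and 0.254 CPM in the other 11. *h1m*, the oocyte linker histone, had 9.50 CPM there and at most 0.108 CPM elsewhere. Its sperm list summed to 1.27 CPM, against 24.6 to 155 CPM in the other JQ1 libraries and 14.7 to 51.6 CPM in DMSO, where *dnah9* alone had up to 49.8 CPM. *dmrt1*, a gene of testis development, had 0.848 CPM in it, against 6.70 to 53.2 CPM in the other JQ1 libraries and at most 0.978 CPM in DMSO. *amh*, from the same list of gonadal somatic genes, went the other way, with 4.07 CPM in it and at most 3.82 CPM in the other 11 libraries. The oocyte markers *figla* and *gdf9* were at 0 in this library. The oocyte gene *buc* had 1.61 CPM in it, against 4.91 and 6.11 CPM in the other JQ1 libraries of day 3. The 7 piRNA pathway genes were nevertheless at 172 CPM in it, above each DMSO library. Without it, 7 of the 8 genes were called at day 3 (14.8% of all genes called higher). The sex of the fish is not in the labels, and its part in these differences was not tested.

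**Figure D4:**
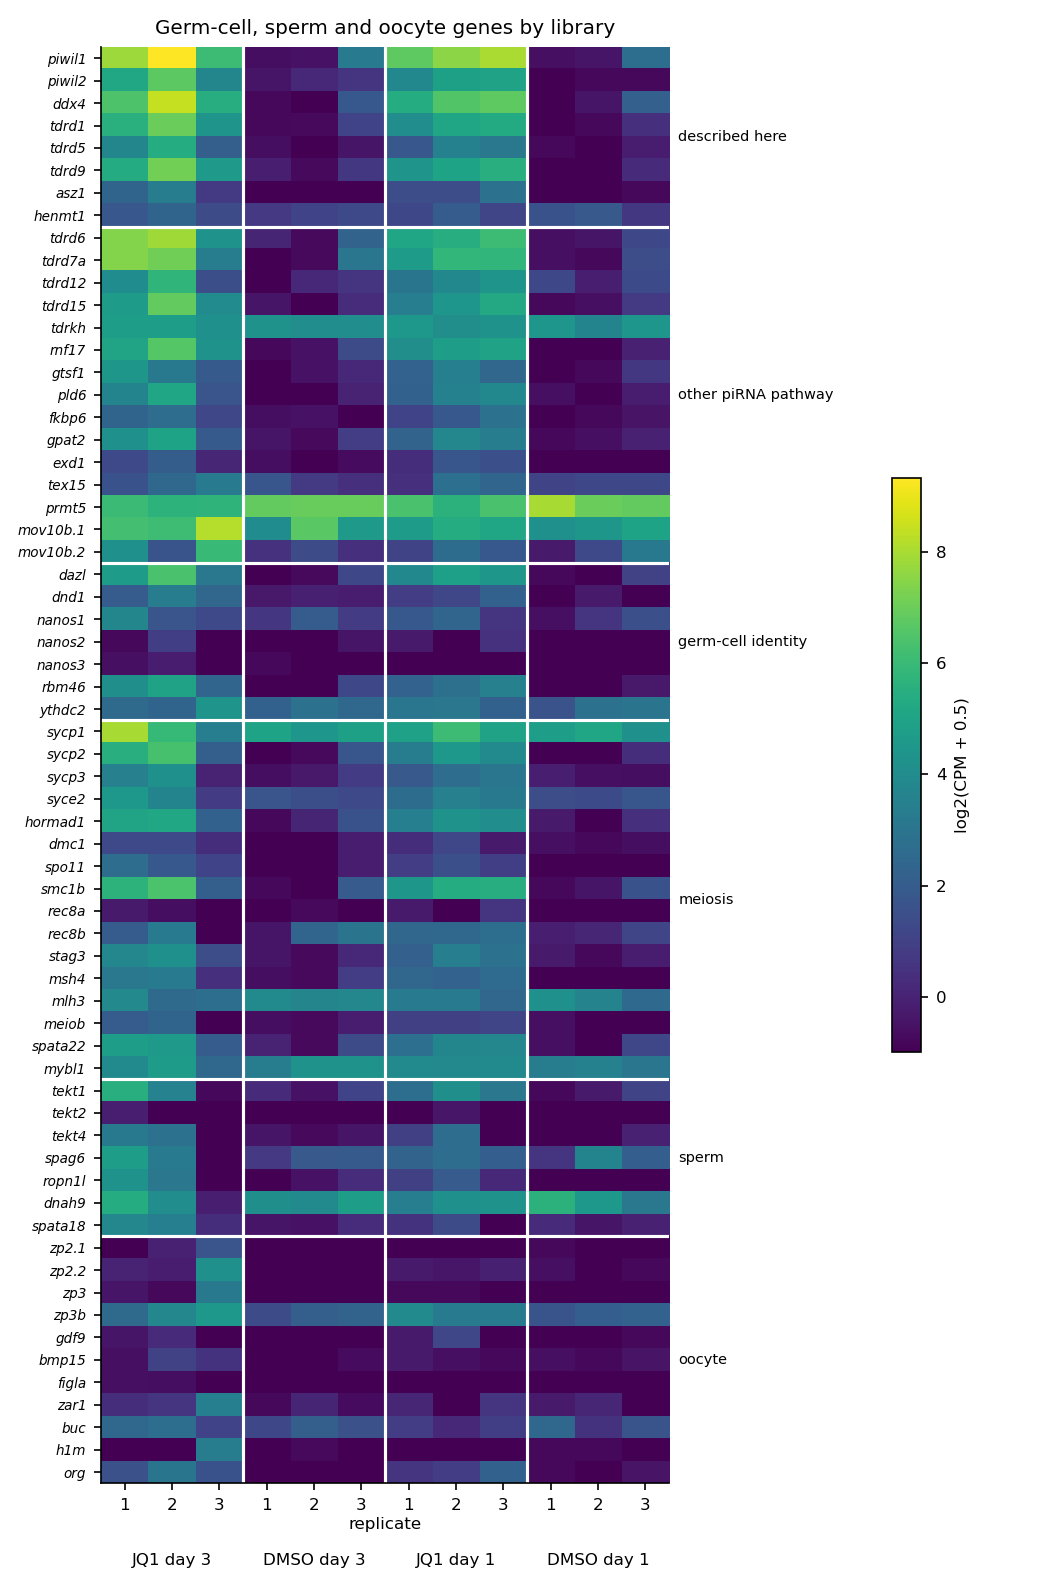
Log2(CPM + 0.5) of the 8 genes, 15 further piRNA pathway genes and the matched genes of 4 germ-cell lists (rows) in the 12 libraries (columns, JQ1 and DMSO at day 3, then at day 1). JQ1 columns are lighter than DMSO columns for most piRNA pathway genes. Replicate 3 of JQ1 at day 3 is the one column that is light for some oocyte genes, such as *zp2.2* (17.9 CPM), and dark for sperm genes.

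Markers of some other cells differed between JQ1 and DMSO, those of epithelium on both days. The summed level of 3 epithelial genes (*krt4*, *krt5* and *epcam*) was 246 to 742 CPM after JQ1 and 7.07 to 47.0 CPM after DMSO at day 3, and 467 to 1363 CPM and 4.65 to 65.5 CPM at day 1. That of 4 macrophage genes was 298 to 1971 CPM after JQ1 and 25.0 to 132 CPM after DMSO at day 3, and at day 1 the groups overlapped (60.5 to 509 CPM after JQ1 and 30.1 to 643 CPM after DMSO). Each of these genes was above 0 in each library. The sum of 4 T-cell genes was lower, at 627 to 2001 CPM after JQ1 and 2689 to 3271 CPM after DMSO at day 3, and overlapped at day 1 (1887 to 2572 CPM after JQ1 and 2366 to 3689 CPM after DMSO). The 3 B-cell genes and the 2 matched erythrocyte genes were apart on neither day. At day 1 the erythrocyte sum was 963 to 1815 CPM after JQ1, against 145, 184 and 1646 CPM in DMSO replicates 1, 2 and 3. Of the DMSO libraries of day 1, replicate 3 also had the highest macrophage (643 CPM), B-cell (93.8 CPM) and epithelial (65.5 CPM) sums. In DMSO at day 3, replicate 3 had the lowest macrophage (25.0 CPM) and B-cell (6.12 CPM) sums. The granulocyte gene *lyz* had 3.14 to 5.13 CPM after JQ1 and 0.340 to 1.01 CPM after DMSO at day 1. At day 3 it overlapped (1.72 to 4.32 CPM after JQ1 and 0.322 to 2.69 CPM after DMSO). Replicate 2 of JQ1 at day 3, the highest library for the 7 genes, was the lowest of the JQ1 libraries for 4 of 4 T-cell genes. The 11 matched genes of gonadal somatic cells summed to 11.8 to 76.7 CPM after JQ1 and 2.81 to 5.71 CPM after DMSO at day 3, and to 17.7 to 28.4 CPM after JQ1 and 3.63 to 5.07 CPM after DMSO at day 1. *dmrt1* made up 53.2 of the 76.7 CPM in replicate 2 of JQ1 at day 3, but 0.848 of the 11.8 CPM in replicate 3. JQ1 was apart and higher for 1 of the 11 at day 3 (30.2% of all genes tested) and for 2 at day 1 (14.9%). It was apart and lower for 1 at day 3 (17.6% of all genes tested), *inha*, which had too few counts for the test. *inha* had 3 counts over the 3 DMSO libraries and 0 after JQ1, which is within the limit given for a count of 0. Of the 11 genes 4 had enough counts for the test, 2 of them only through the JQ1 libraries, and 0 were called by edgeR on either day. An unadjusted p under 0.05 was reached by 2 on each day, and by 7090 of 16271 genes tested at day 3 and 3537 of 15813 at day 1. Among them *dmrt1* had a log2 fold change of 6.01 at day 3 (SE 1.83, adjusted p = 0.0517 from edgeR), where its groups overlapped. At day 1 it was 6.92 (SE 1.07, adjusted p = 0.0608 from edgeR). The other was *star*, apart on both days, with 2.31 at day 3 (SE 0.72, adjusted p = 0.0539 from edgeR) and 1.91 at day 1 (SE 0.82, adjusted p = 0.222 from edgeR). Both genes passed the filter on low counts only through the JQ1 libraries, so that these p-values are a description. The part of these cells in the levels of the piRNA pathway genes was not tested.

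The ERCC spike-in was added by cell number, and zebrafish counts per ERCC count were lower after JQ1, at 51.7 to 62.4 against 83.5 to 102 in DMSO at day 3 and 21.8 to 64.3 against 88.8 to 108 at day 1. On this scale the log2 fold changes of all genes had medians of −0.38 at day 3 and −1.51 at day 1, and those of the 8 genes had medians of 6.33 and 4.90. By edgeR, 7 of the 8 were called on each day, where 11.3% of all genes were called higher at day 3 and 1.57% at day 1. The 3 JQ1 libraries stayed above the 3 DMSO libraries for 7 genes on both days (in CPM, 30.2% of all genes tested at day 3 and 14.9% at day 1). *henmt1* overlapped at day 3 by this scale as well as by TMM-normalized CPM.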

How the data were processed

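RNA-seq libraries were made from total RNA of sorted tumor cells with ERCC spike-in and sequenced as strand-specific paired-end reads. Per the submitters' processing notes and the study's methods, the authors aligned reads to GRCz11 with STAR 2.5.2a, kept reads mapping to 1 place and counted them on Ensembl genes with featureCounts. The values deposited are whole counts, not normalized, of 25607 zebrafish genes, 92 ERCC sequences, 2 transgenes and 42 T-cell receptor constructs (all at 0, left out). Reads shared by similar genes were thus dropped, and the strand setting of the counting is not given in the sources used here. The authors' DESeq2 1.12.4 tables hold their own fold changes and p-values and were not used.

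Counts were tested with R 4.3.3 and edgeR 4.0.16 (filterByExpr, TMM over zebrafish genes, quasi-likelihood test, Benjamini-Hochberg adjustment over all genes tested, threshold 0.05), each pair of groups in its own fit and the change of the JQ1 effect between days over the 12 libraries. Log2 CPM used a prior count of 2. The standard errors (SE) given with edgeR fold changes were derived as the absolute log2 fold change over the square root of the test's F statistic. They are approximate where the DMSO counts are near 0. DESeq2 1.42.0, ERCC scaling, no filter, a fit over 4 groups, a replicate block and leaving out each replicate were alternatives. The scripts were tested on simulated data. Replicates of a group differed by more than sampling noise (chi-square per degree of freedom 38.8 to 131). The genes and all lists were chosen with earlier results of these data known. Named were the 8 matched genes, genes of the other piRNA, germ-cell identity and meiosis lists past the threshold or with the highest CPM of their list, the 10 genes most like the 8, and checks of treatment and cell type. The other genes named were chosen after their values were seen, and so were *tdrd7a*, *tdrkh*, *nanos2* and *nanos3*. The planned description of promoter motifs was not run, since no promoter sequence was used here.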

Additional observations from a re-analysis of the deposited data

How the results depend on the processing

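The direction between JQ1 and DMSO held for 7 of the 8 genes under each alternative, and *henmt1* turned. Its log2 fold change at day 1, 0.05, was −1.52 with ERCC scaling (edgeR, and DESeq2 with ERCC size factors), −0.029 without the filter and −0.34 to 0.42 with 1 library left out. The size of the other fold changes depended on single libraries. With 1 library left out, the log2 fold change at day 3 was 5.36 to 10.3 for *piwil1* and 5.80 to 11.1 for *ddx4*. At day 1 that of *tdrd9* was 6.47 to 11.5, the highest without DMSO replicate 3, which held all its DMSO counts. At day 3, 4104 genes were called by edgeR, 6292 by DESeq2, 7707 by DESeq2 with ERCC size factors and 0 to 3901 with 1 library left out, when 0 to 7 of the 8 genes were called. At day 1, 7 genes were called by edgeR, 6193 with ERCC scaling, 2013 by DESeq2, 7892 by DESeq2 with ERCC size factors, 225 without the filter, 891 in a fit over 4 groups and 0 to 1591 with 1 library left out. Of the 8 genes, 7 were then called in place of 1 with ERCC scaling, by DESeq2, without the filter and in the fit over 4 groups, 6 by DESeq2 with ERCC size factors, and 0 to 7 with 1 library left out.

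Between the JQ1 days, 5 genes were called by edgeR, 636 with ERCC scaling, 187 by DESeq2, 1426 by DESeq2 with ERCC size factors, 8 without the filter, 0 in the fit over 4 groups and 0 to 2 with 1 library left out. The *piwil1* log2 fold change between these days, 0.46, was −0.52 to 0.88 with 1 library left out. Of the 8 genes, 1 was called with ERCC scaling and 3 by DESeq2 with ERCC size factors, against 0 by edgeR. Between the DMSO days, 0 genes were called by edgeR, 119 by DESeq2, 129 by DESeq2 with ERCC size factors and 0 to 4 with 1 library left out. For the change of the JQ1 effect, edgeR called 0 genes, ERCC scaling 1, DESeq2 39, DESeq2 with ERCC size factors 775, and 0 to 1 with 1 library left out. That change for *piwil1*, −0.23, was 1.23 with ERCC scaling, 1.17 by DESeq2 with ERCC size factors and −3.28 to 3.81 with 1 library left out. The causes were not tested.

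Same-numbered libraries did not deviate together (r of −0.26 to 0.13), so the numbers were not taken to pair them. With the replicate number as a block, 0 genes and 0 of the 8 were called at day 3, at day 1 and between the JQ1 days, and the change of the JQ1 effect for *piwil1* was 0.35.

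With 3 libraries per group, day and single libraries limit each statement, and a DMSO level of a few counts fixes a fold change only within a wide interval.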
